A study of Mus musculus with 64 samples.

Results

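The genes that write, copy and remove DNA methylation are described here in the mouse male germline. They are 8 of the 26385 genes of the deposited RNA-Seq tables, namely Dnmt1, Dnmt3a, Dnmt3b, Dnmt3l, Uhrf1, Tet1, Tet2 and Tet3. They were taken by gene symbol, and all 8 were found in each of the 47 RNA-Seq libraries. The study asked how MORC1 takes part in transposon repression in the mouse male germline, and measured RNA in 20 libraries of sorted germ cells and 27 libraries of whole testis. Each library came from 1 individual mouse. The germ cell libraries were of the Morc1tg line, an FVB/N strain with a transgene inserted in Morc1, which for the stages up to P2.5 was crossed to an Oct4 reporter line of mixed background that marks germ cells with GFP. They comprised Morc1tg/+ and Morc1tg/tg cells at E16.5 (2 and 2 libraries), E18.5 (2 and 2), P2.5 (3 and 2) and P10.5 (4 and 3). Cells were sorted by GFP up to P2.5 and by surface proteins at P10.5 (high EPCAM, no MHC class I, low side scatter), and no reporter cross is stated for that stage, so that the last stage, its sort and any difference in strain background cannot be told apart. The testis libraries were of Morc1tg/tg mice at P10.5 (3) and P14.5 (3) with Morc1tg/+ (2 at P10.5, 3 at P14.5) and Morc1+/+ (1 at P10.5) controls, of Dnmt3l-/- (3), Dnmt3l+/- (3) and Dnmt3l+/+ (3) mice at P10.5, and of mice labelled Miwi2-/- (2) and Miwi2+/- (2) at P10.5. A preliminary Morc1+/+ library and a preliminary Morc1tg/+ library, also of P10.5 testis, entered only an alternative comparison. The 2 tissues were prepared with different kits, and germ cells make up a part of the testis, so no test was made between them.

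DNA methylation of cytosine in CG dinucleotides is set by the de novo enzymes DNMT3A, DNMT3B and, in the male germ cells of mice, DNMT3C, and copied after replication by DNMT1, which UHRF1 brings to hemimethylated DNA. DNMT3L has no catalytic activity of its own and stimulates the de novo enzymes in germ cells. The TET proteins oxidise methylcytosine, a step on the way to its removal. In the male germline, methylation is erased in primordial germ cells and laid down again before birth, while the cells are arrested in the cell cycle, and it is then kept through the divisions of spermatogonia.

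In the mm9 coordinates of the tables, Dnmt1 lies on chromosome 9 (20711650 to 20757317, minus strand), Uhrf1 on chromosome 17 (56442744 to 56462909, plus strand) and Dnmt3l on chromosome 10 (77504692 to 77526367, plus strand). Dnmt3a is on chromosome 12 (3806007 to 3914443, plus strand) and Dnmt3b on chromosome 2 (153475186 to 153513466, plus strand). Gm14490, the Dnmt3b duplicate that encodes DNMT3C, lies beside it in the mm9 annotation GENCODE vM1 (153522388 to 153555641, plus strand) and was not analysed here, and since the pair are similar in sequence, the Dnmt3b counts are uncertain for reads that match both. Tet1 is on chromosome 10 (62267318 to 62361866, minus strand), Tet2 on chromosome 3 (133126643 to 133207354, minus strand) and Tet3 on chromosome 6 (83312367 to 83391672, minus strand). Dnmt3l and Uhrf1 moved furthest in opposite directions over the germ cell stages, and their RefSeq promoters are shown for that reason, as 300 bases from 250 before to 50 after each annotated start, in build GRCm38.p6 and with each CG in capitals. Counts per gene do not show which start was used. The Uhrf1 windows are chr17:56303087-56303386 and chr17:56304063-56304362, and the Dnmt3l windows are chr10:78042037-78042336, chr10:78049592-78049891 and chr10:78055085-78055384, all on the plus strand.
Uhrf1 first start: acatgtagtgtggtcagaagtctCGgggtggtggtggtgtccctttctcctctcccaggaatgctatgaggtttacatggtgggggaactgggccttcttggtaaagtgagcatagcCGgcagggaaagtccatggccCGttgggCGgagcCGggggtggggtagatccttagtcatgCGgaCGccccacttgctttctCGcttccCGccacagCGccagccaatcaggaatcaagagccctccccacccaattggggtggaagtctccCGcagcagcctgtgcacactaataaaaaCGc
Uhrf1 second start: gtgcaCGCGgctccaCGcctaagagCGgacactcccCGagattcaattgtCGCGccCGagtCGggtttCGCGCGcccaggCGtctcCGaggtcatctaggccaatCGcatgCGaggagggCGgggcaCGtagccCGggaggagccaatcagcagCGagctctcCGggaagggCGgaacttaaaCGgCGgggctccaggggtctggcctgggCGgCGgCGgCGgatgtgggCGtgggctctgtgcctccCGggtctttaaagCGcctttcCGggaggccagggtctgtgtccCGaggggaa
Dnmt3l first start: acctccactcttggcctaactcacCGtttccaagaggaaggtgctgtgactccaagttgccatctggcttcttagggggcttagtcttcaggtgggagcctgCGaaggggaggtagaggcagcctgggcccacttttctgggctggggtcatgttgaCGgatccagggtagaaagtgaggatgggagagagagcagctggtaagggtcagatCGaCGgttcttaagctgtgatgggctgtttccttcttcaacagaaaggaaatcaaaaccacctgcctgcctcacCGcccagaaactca
Dnmt3l second start: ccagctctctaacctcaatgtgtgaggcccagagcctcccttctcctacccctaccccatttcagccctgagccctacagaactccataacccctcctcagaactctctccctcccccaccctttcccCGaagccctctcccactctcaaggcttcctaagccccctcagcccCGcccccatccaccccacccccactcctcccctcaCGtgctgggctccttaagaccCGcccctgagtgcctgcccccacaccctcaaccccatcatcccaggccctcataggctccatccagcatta
Dnmt3l last start: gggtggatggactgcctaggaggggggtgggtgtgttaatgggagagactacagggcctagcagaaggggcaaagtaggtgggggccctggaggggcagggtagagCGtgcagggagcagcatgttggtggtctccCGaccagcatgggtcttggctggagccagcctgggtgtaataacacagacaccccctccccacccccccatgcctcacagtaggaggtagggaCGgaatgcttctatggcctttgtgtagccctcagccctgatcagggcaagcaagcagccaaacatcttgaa

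Over 32851 promoter windows of 27025 genes, the median number of CG was 7. The 3 Dnmt3l windows held 6, 4 and 3 CG, below that median, and the Uhrf1 windows held 12 and 33. Among the other genes, a window with at least 17 CG was found for each: Tet1 had 17, Dnmt3b 30 and Tet2 57 in their single windows, Tet3 had 22, Dnmt1 had 2, 12 and 33, and Dnmt3a had 46, 47 and 18, the first pair of which overlap. The letters GGGCGG, the GC box, were found on either strand in 35.7% of all windows. Among the 15 windows of these genes, they were in all but the first and second Dnmt1 and the last Dnmt3l window. CACGTG, the E-box that reads the same on both strands, was in 7.15% of all windows and in the second Dnmt3l and the last Dnmt3a window. GCGGGAA, a form of the E2F motif, was in 4.6% of all windows and, of the 15 windows of these genes, in the first Uhrf1 window. These matches describe the letters only.

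The libraries held between 2413679 and 14918478 reads on genes in sorted cells and between 22509570 and 42137954 in testis. Levels are given as the authors' RPKM, which is per length, so the order of genes rests on the exon length used for each. Changes are log2 fold changes from edgeR's quasi-likelihood test on the counts after TMM scaling. The test returns no standard error, so each one given was taken as the absolute log2 change divided by the square root of the F statistic. It is unreliable where the change is small. The p-values were adjusted by Benjamini-Hochberg over all genes tested, and a gene was called at an adjusted p under 0.05. Overlap between groups was looked at for the 8 genes and was not counted over all genes. The 8 germ cell markers were all present in the sorted libraries, with a summed RPKM between 444.9 and 1018. The list includes the genes the sorts relied on, Pou5f1 (Oct4), whose reporter marked the cells up to P2.5, and Epcam at P10.5. Sertoli cell markers (Sox9, Amh and 4 others) summed to between 10.87 and 39.33 in sorted cells, against at least 424.5 in testis. The targeted genes were checked first. Morc1 was at 36.1 and 52.9 RPKM in E16.5 Morc1tg/+ germ cells and at 11.1 and 8.29 in Morc1tg/tg, lower but still counted. Piwil4, the gene that encodes MIWI2, was at 10.7 and 11.5 RPKM in the libraries labelled Miwi2-/- and at 6.65 and 7.01 in Miwi2+/-, higher in the libraries labelled as mutant. The tables count reads per gene and do not show whether these reads lie outside the deleted part.

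The order of the 8 RNAs turned over between the fetal and the postnatal germ cells. In Morc1tg/+ cells at E16.5, Dnmt3l had the highest RPKM of the 8 (97.4 ± 9.83, SD, n = 2), followed by Dnmt3a (53.2 ± 3.44) and Dnmt1 (43.1 ± 6.67), the ranges of which did not overlap. Uhrf1 (2.86) and Tet1 (1.95) were the lowest. Before scaling by length, Dnmt3a had more reads there than Dnmt3l, 9465 and 12055 against 3156 and 4232. At P2.5, Dnmt1 (87.4 ± 4.48 RPKM, n = 3) and Uhrf1 (75.1 ± 10.51) led, with overlapping ranges, and Dnmt3l had dropped to 2.93 ± 0.76. At P10.5, Dnmt1 (71.4 ± 7.24, n = 4) and Uhrf1 (27.7 ± 1.28) led again, and Dnmt3l was the lowest at 0.193 ± 0.0981, next to Tet1 at 0.230 ± 0.0739, a pair whose ranges overlapped. As a share of the summed RPKM of the 8 genes, Dnmt3l took 42.2% and 42.9% in the E16.5 Morc1tg/+ libraries, between 0.925% and 1.73% at P2.5 and between 0.0508% and 0.227% at P10.5.

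**Figure D1:**
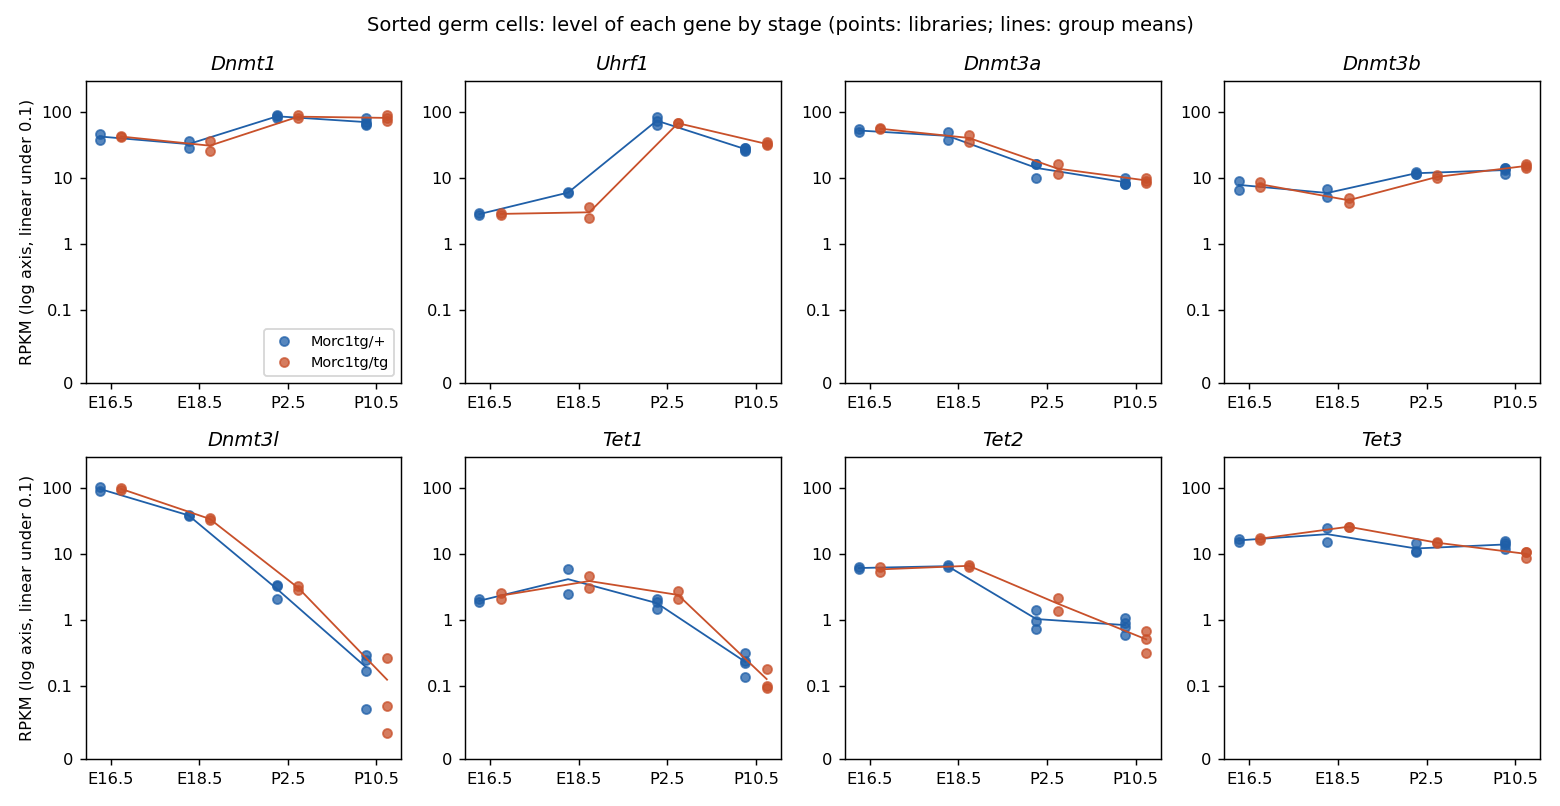
RPKM of each gene in sorted germ cells by stage, 1 point per library, for Morc1tg/+ (het) and Morc1tg/tg (KO) cells, with the group means joined by lines. The vertical axis is logarithmic above 0.1 RPKM and linear below it. Dnmt3l runs from a mean of 97.4 RPKM at E16.5 to 0.193 at P10.5 in Morc1tg/+ cells, while Uhrf1 runs from 2.86 to a peak of 75.1 at P2.5.

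Beginning with the maintenance pair, Dnmt1 RNA in Morc1tg/+ cells was 38.4 and 47.9 RPKM at E16.5, then 37.1 and 29.0 at E18.5, 82.7, 87.8 and 91.6 at P2.5, and 81.8, 70.7, 67.5 and 65.6 at P10.5. In Morc1tg/tg cells it was 43.7 and 42.4, then 37.0 and 25.6, then 82.1 and 90.6, then 83.1, 90.003 and 74.9. Every postnatal library was above every fetal one, in both genotypes. Uhrf1, which in Morc1tg/+ cells read 2.80 and 2.92 at E16.5 before 6.19 and 5.95 at E18.5, stood at 65.5, 73.4 and 86.3 at P2.5 and at 28.5, 26.1, 28.9 and 27.4 at P10.5. Uhrf1 in Morc1tg/tg cells was 2.77 and 3.00, then 3.62 and 2.48, then 69.3 and 68.0, then 31.8, 32.9 and 35.0. The P2.5 libraries were the highest in each genotype, with no overlap with any other stage.

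Between E18.5 and P2.5, Uhrf1 rose by 3.44 ± 0.14 (SE) on the log2 scale in Morc1tg/+ cells, a 10.8-fold increase (edgeR, adjusted p = 9.4e-10), and by 4.23 ± 0.19 in Morc1tg/tg cells (adjusted p = 5.4e-08). Dnmt1 rose by 1.23 ± 0.11 (2.34-fold, edgeR adjusted p = 6.1e-07) and by 1.20 ± 0.13 (adjusted p = 2.8e-05). All 8 genes were called in this step in each genotype, 3 higher and 5 lower, where 39.1% of all genes tested were called in Morc1tg/+ and 30.9% in Morc1tg/tg cells. The stage comparisons share groups, since the P2.5 libraries enter 2 steps. Between P2.5 and P10.5, Uhrf1 fell by 1.15 ± 0.10 in Morc1tg/+ cells (2.22-fold, edgeR adjusted p = 6.6e-07) and by 0.78 ± 0.14 in Morc1tg/tg (adjusted p = 0.0020). Dnmt1 did not pass the test in that step, with log2 changes of -0.01 ± 0.09 and 0.20 ± 0.12. In RPKM the Dnmt1 mean went from 87.4 to 71.4 in Morc1tg/+ cells. The median change of all genes in this step was -0.10 with log2(RPKM + 1) and 0.02 with TMM, and its part in the Dnmt1 values was not tested.

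The earlier step was smaller. Between E16.5 and E18.5 in Morc1tg/+ cells 4 of the 8 genes were called, 2 higher and 2 lower, where 18.7% of all genes were. Uhrf1 rose by 1.11 ± 0.15 (2.15-fold, edgeR adjusted p = 7.7e-05) and Dnmt1 fell by 0.37 ± 0.11 (adjusted p = 0.034). The Dnmt1 call was lost with RLE size factors (adjusted p = 0.063), log2(RPKM + 1) (0.13) and the replicate block (0.065), and without E16.5 replicate 1, E16.5 replicate 2 or E18.5 replicate 2, where the adjusted p was 0.066, 0.23 and 0.13. In Morc1tg/tg cells 2 genes were called, against 19.5% of all genes, and Uhrf1 was not among them (log2 change 0.19 ± 0.19, adjusted p = 0.54). Whether the Uhrf1 step differed between the genotypes was not tested, but at E18.5 itself its RPKM was 6.19 and 5.95 in Morc1tg/+ and 3.62 and 2.48 in Morc1tg/tg, with a log2 difference of -0.90 ± 0.46 (edgeR adjusted p = 0.82). In the edgeR fit of all 20 sorted libraries together this difference was -0.91 with an adjusted p of 0.0045, where 619 of 17758 genes were called in place of 6 of 14422.

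Genes that work beside the maintenance enzymes, and genes of DNA replication and division, were counted in the same step. Of 7 maintenance partners, 6 rose and 1 fell between E18.5 and P2.5 in Morc1tg/+ cells, with a median log2 change of 1.14 against -0.07 over all genes tested. Pcna, the replication clamp, rose by 2.47, Cdca7 by 1.65 and the remodeller Hells by 1.45, while Dppa3, a protein of early germ cells and oocytes that interferes with UHRF1, fell by 4.74. All 12 proliferation genes rose, with a median of 2.41. Rrm2, a subunit of ribonucleotide reductase, rose by 6.60, Ccna2 by 5.44, Mki67 by 3.73 and Cdk1 by 3.58. In Morc1tg/tg cells the counts were 6 higher and 1 lower of 7, and 12 higher of 12. The summed RPKM of the proliferation genes in Morc1tg/+ cells was between 115.7 and 154.9 at E18.5 and between 653.9 and 756.5 at P2.5. Its part in the rise of Uhrf1 and Dnmt1 was not tested.

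The de novo genes ran the other way, except Dnmt3b. Dnmt3l in Morc1tg/+ cells was 90.5 and 104 RPKM at E16.5, then 38.0 and 39.3 at E18.5, 3.32, 3.42 and 2.06 at P2.5, and 0.166, 0.243, 0.0682 and 0.293 at P10.5. In Morc1tg/tg cells it was 102 and 93.0, then 35.6 and 32.6, then 2.88 and 3.21, then 0.0350, 0.264 and 0.0718. No stage overlapped another in either genotype. Dnmt3a, the catalytic partner of DNMT3L in germ cells, was 50.8 and 55.6 RPKM at E16.5 in Morc1tg/+ cells, 37.9 and 50.2 at E18.5, 10.1, 16.6 and 16.4 at P2.5, and 9.94, 8.27, 8.50 and 8.24 at P10.5. Dnmt3a in Morc1tg/tg cells was 57.4 and 55.8, then 46.0 and 36.0, then 11.5 and 16.6, then 9.10, 8.63 and 10.1. Fetal and postnatal libraries did not overlap.

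Dnmt3l fell at each step. In Morc1tg/+ cells the log2 change was -1.30 ± 0.24 from E16.5 to E18.5 (a 2.47-fold decrease, edgeR adjusted p = 0.0011), -3.94 ± 0.25 from E18.5 to P2.5 (15.3-fold, adjusted p = 3.3e-08) and -3.58 ± 0.33 from P2.5 to P10.5 (12.0-fold, adjusted p = 1.9e-06). In Morc1tg/tg cells it was -1.38 ± 0.24, -3.75 ± 0.29 and -4.29 ± 0.41, all called. The P10.5 values rest on 5, 8, 2 and 8 reads in Morc1tg/+ libraries and 1, 8 and 2 in Morc1tg/tg, against 22 to 63 at P2.5, so the last step is uncertain in size: without Morc1tg/tg replicate 2 it was -5.42 in those cells, and with log2(RPKM + 1), which shrinks changes of low genes, it was -1.85 there and -1.70 in Morc1tg/+ cells. Dnmt3a fell by 1.82 ± 0.18 from E18.5 to P2.5 in Morc1tg/+ cells (3.52-fold, edgeR adjusted p = 2.0e-06) and by 1.81 ± 0.17 in Morc1tg/tg. Between P2.5 and P10.5 it fell by 0.44 ± 0.15 in Morc1tg/+ cells (adjusted p = 0.044), a call lost without any 1 of 6 of the 7 libraries of the step (adjusted p from 0.061 without P10.5 replicate 1 to 0.22 without P2.5 replicate 2) and with the replicate block (0.11). In that step 6 of the 8 genes were called in Morc1tg/+ cells, 2 higher and 4 lower, against 27.6% of all genes, and 5 in Morc1tg/tg, 1 higher and 4 lower, against 16.3%.

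Dnmt3b, which encodes another de novo enzyme, was 6.70 and 9.21 RPKM at E16.5 in Morc1tg/+ cells, 6.79 and 5.18 at E18.5, 12.6, 11.7 and 11.5 at P2.5, and 14.2, 14.3, 13.3 and 11.6 at P10.5. In Morc1tg/tg cells it was 7.48 and 8.82, 4.18 and 5.11, 11.1 and 9.97, and 15.6, 16.3 and 14.3. Its postnatal libraries were above its fetal ones. From E18.5 to P2.5 it rose by 0.82 ± 0.17 in Morc1tg/+ cells (1.77-fold, edgeR adjusted p = 0.0015) and by 0.87 ± 0.23 in Morc1tg/tg (adjusted p = 0.012, and 0.078 without E18.5 replicate 1). From P2.5 to P10.5 it rose by 0.44 ± 0.14 in Morc1tg/+ cells (adjusted p = 0.025, with a range from 0.054 to 0.097 under the 5 single omissions that lost it, P2.5 replicates 2 and 3 and P10.5 replicates 1, 2 and 3, and 0.53 at a log2 change of 0.14 with log2(RPKM + 1)) and by 0.81 ± 0.20 in Morc1tg/tg (adjusted p = 0.016, and 0.068, 0.064 and 0.050 without P10.5 replicates 1, 2 and 3, 0.082 with log2(RPKM + 1) and 0.060 with the replicate block). The ratio of Dnmt3a to Dnmt3b RPKM was 7.58 and 6.04 in the E16.5 Morc1tg/+ libraries and between 0.580 and 0.711 at P10.5, so the higher RPKM of the pair passed from Dnmt3a to Dnmt3b. In reads, Dnmt3a stayed ahead in Morc1tg/+ cells at P10.5 (1201 to 1598 against 751 to 1114), and the Dnmt3b counts are uncertain because of its duplicate. Of 11 chromatin partners of de novo methylation, 6 fell and 2 rose from E18.5 to P2.5 in Morc1tg/+ cells (median -0.55, against -0.07 over all genes, of which 39.1% were called). Kdm1b, an H3K4 demethylase, fell by 1.68, the methyltransferase gene Ehmt2 by 1.25 and Piwil4 by 1.17, while Ehmt1 rose by 0.68.

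Tet3 was the most abundant TET RNA at every stage. In Morc1tg/+ cells it was 16.9 and 15.3 RPKM at E16.5, then 24.8 and 15.2 at E18.5, 14.7, 10.7 and 10.996 at P2.5, and 13.8, 11.8, 14.7 and 15.5 at P10.5. Tet3 in Morc1tg/tg cells was 17.6 and 16.52, 25.9 and 26.0, 15.1 and 14.6, and 10.7, 10.7 and 8.78. In Morc1tg/+ cells the P2.5 libraries lay below the fetal ones and overlapped those of P10.5, and in Morc1tg/tg cells the P10.5 libraries were the lowest. Tet2 in Morc1tg/+ cells was 6.35 and 5.90, 6.74 and 6.34, then 0.728, 0.963 and 1.40, then 0.891, 0.774, 1.08 and 0.593. Tet2 in Morc1tg/tg cells was 6.27 and 5.42, 6.93 and 6.31, 2.17 and 1.37, and 0.682, 0.318 and 0.517. Every postnatal library was below every fetal one. Tet1, best known from embryonic stem cells and primordial germ cells, was 1.86 and 2.04 RPKM at E16.5 in Morc1tg/+ cells, 5.87 and 2.44 at E18.5, 2.09, 1.46 and 1.85 at P2.5, and 0.318, 0.138, 0.223 and 0.240 at P10.5. Tet1 in Morc1tg/tg cells was 2.56 and 2.11, 4.72 and 3.06, 2.70 and 2.08, and 0.0968, 0.183 and 0.0994. The P10.5 libraries were below all others in each genotype.

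The TET changes were spread over the steps. Between E18.5 and P2.5 Tet2 fell by 2.83 ± 0.26 in Morc1tg/+ (7.12-fold, edgeR adjusted p = 8.4e-07) and by 2.21 ± 0.35 in Morc1tg/tg cells (adjusted p = 0.00041), and then changed by -0.04 ± 0.23 in Morc1tg/+ cells (adjusted p = 0.92) and fell by 1.51 ± 0.32 in Morc1tg/tg (adjusted p = 0.0065, and 0.051 with log2(RPKM + 1)). Tet1 fell by 2.69 ± 0.28 between P2.5 and P10.5 in Morc1tg/+ (6.43-fold, adjusted p = 5.8e-06) and fell by 3.97 ± 0.30 in Morc1tg/tg cells (15.7-fold, adjusted p = 5.2e-06). It had already fallen by 1.36 ± 0.30 and 0.96 ± 0.30 from E18.5 to P2.5, a call lost without E18.5 replicate 1 in Morc1tg/+ (adjusted p = 0.068) and without E18.5 replicate 1 or P2.5 replicate 2 in Morc1tg/tg cells (0.086 and 0.093), where log2(RPKM + 1) (0.17) and the replicate block (0.053) also ended it. From E16.5 to E18.5 it rose by 1.07 ± 0.34 in Morc1tg/+ cells (adjusted p = 0.036), with an adjusted p of 0.14, 0.18 and 0.33 without E16.5 replicate 1, E16.5 replicate 2 and E18.5 replicate 1, and of 0.12 with log2(RPKM + 1). Tet3 fell by 0.88 ± 0.18 from E18.5 to P2.5 in Morc1tg/+ (adjusted p = 0.0014) and by 1.09 ± 0.15 in Morc1tg/tg cells, where it had risen by 0.74 ± 0.15 from E16.5 to E18.5 (adjusted p = 0.0029). From P2.5 to P10.5 it rose by 0.48 ± 0.16 in Morc1tg/+ cells (adjusted p = 0.030, not called without any of P2.5 replicates 2 and 3 and P10.5 replicates 3 and 4, at 0.075 to 0.14, with RLE size factors, at 0.054, or with log2(RPKM + 1), at 0.48 and a log2 change of 0.19), and in Morc1tg/tg cells its change was -0.30 ± 0.13 (adjusted p = 0.14, and 0.020 with DESeq2). Of 10 base removal and repair genes tested, 4 rose and 1 fell from E18.5 to P2.5 in Morc1tg/+ cells, near the 39.1% called among all genes. Ung, the uracil glycosylase, rose by 1.95 and Tdg, the glycosylase that removes oxidised methylcytosine, by 1.75, while Apobec1, a cytidine deaminase, was at 0 RPKM in 1 E18.5 library and in all 3 P2.5 libraries.

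Over the 20 sorted libraries the genes that tracked each RNA most closely were sought among 12870 genes with a mean of at least 1 RPKM, by Pearson's r of log2(RPKM + 1). The libraries share stage and sort, so these are descriptions. Dnmt3l ran with Hydin (r = 0.988) and Zfp516 (0.986), Uhrf1 with Abr (0.990) and Ret (0.987), and Dnmt1 with Ncoa3 (0.979) and Mcm10 (0.977). Dnmt3a ran with Gpr126 (0.989) and Bend4 (0.985), Dnmt3b with Qars (0.974) and Ssbp1 (0.966), Tet1 with Wnk2 (0.970) and Cacng7 (0.968), Tet2 with Cln3 (0.984) and Auts2 (0.983), and Tet3 with Rapgefl1 (0.904) and Grin2d (0.903). Among the 8 themselves, Dnmt3a and Dnmt3l had r = 0.980 and Dnmt1 and Uhrf1 r = 0.913, while Dnmt3l and Uhrf1 had r = -0.840.

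The question of the Morc1 comparisons was whether loss of MORC1 goes with a change in the methylation machinery. In fetal and P2.5 germ cells none of the 8 genes was called by edgeR or by DESeq2. At an unadjusted p under 0.05 edgeR had 0, 1 and 0 of them at E16.5, E18.5 and P2.5, against 1447 of 16630, 895 of 14422 and 698 of 14413 genes in all. Of all genes tested, 0.421% were called at E16.5, 0.0416% at E18.5 and 0.0486% at P2.5. The log2 differences of the 8 genes at E16.5 lay between -0.15 ± 0.13 (Tet2) and 0.18 ± 0.15 (Tet1), with standard errors of 0.09 for Dnmt1 and Dnmt3a and 0.10 for Dnmt3l. At E18.5, where the libraries were shallow (2698197 to 4007833 reads), they lay between -0.90 ± 0.46 (Uhrf1) and 0.52 ± 0.20 (Tet3), and at P2.5 between -0.21 ± 0.24 (Dnmt3b) and 0.76 ± 0.46 (Tet2). Without Morc1tg/+ replicate 1, which leaves 1 library in that group, the log2 difference of Tet3 at E18.5 was 0.78. The standard errors reached 0.46 for Uhrf1 at E18.5 and 0.70 for Dnmt3l at P2.5, the latter at a log2 difference of 0.02, where it is unreliable. In the fit of all 20 sorted libraries Uhrf1 at E18.5 was called (-0.91, edgeR adjusted p = 0.0045), among 619 of 17758 genes in all.

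At P10.5, 2 of the 7 genes tested were called in germ cells, both lower in Morc1tg/tg, against 12.2% of all genes. Dnmt3l was left out there by the filter on low counts. Its log2 difference was -0.71 with no filter and -0.68 in the fit of all sorted libraries, and it was called in neither. Tet3 was 10.7, 10.7 and 8.78 RPKM in Morc1tg/tg and 13.8, 11.8, 14.7 and 15.5 in Morc1tg/+ cells. The groups did not overlap, which was not counted over all genes, and Tet3 was 1.47-fold lower (log2 difference -0.55 ± 0.09, edgeR adjusted p = 0.00015). In the fit of all 20 sorted libraries its adjusted p was 0.055. Tet2 was 0.682, 0.318 and 0.517 against 0.891, 0.774, 1.08 and 0.593, groups that overlapped, with a log2 difference of -0.79 ± 0.25 (adjusted p = 0.035). The Tet2 call was lost with log2(RPKM + 1) (adjusted p = 0.18), in the fit of all sorted libraries (0.23), and without Morc1tg/tg replicate 2 (0.21), Morc1tg/tg replicate 3 (0.065), Morc1tg/+ replicate 1 (0.071) or Morc1tg/+ replicate 3 (0.13). Tet1, at 22, 44 and 22 reads against 76, 36, 52 and 52, had a log2 difference of -0.93 ± 0.35 (adjusted p = 0.085, and 0.039 without Morc1tg/+ replicate 2). Uhrf1, at 31.8, 32.9 and 35.0 RPKM against 28.5, 26.1, 28.9 and 27.4, did not overlap between the groups but did not pass the test (log2 difference 0.18 ± 0.08, adjusted p = 0.13). Dnmt1, Dnmt3a and Dnmt3b had log2 differences of 0.13 ± 0.07, 0.01 ± 0.09 and 0.13 ± 0.09, and none of them was called. Of these, Dnmt3b did not overlap between the groups, at 14.32 to 16.33 RPKM in Morc1tg/tg and 11.59 to 14.26 in Morc1tg/+ cells.

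Other germ cell states moved in the same libraries. The 5 markers of undifferentiated spermatogonia summed to between 122.9 and 148.3 RPKM in Morc1tg/tg and between 92.19 and 99.43 in Morc1tg/+ cells, with 3 of 5 higher. The 5 markers of differentiating spermatogonia summed to between 91.26 and 108.2 against 134.3 and 161.7, with 3 of 5 lower, and 4 of 6 early meiosis markers were lower. Moreover, 3 of 6 Sertoli cell markers were lower, at sums of 16.14 to 27.13 against 23.96 to 39.33. The part of these in the Tet2 and Tet3 differences was not tested. The test of the difference between the Morc1 effect at P10.5 and at E16.5 called none of the 8 genes with edgeR, against 1.71% of all genes. DESeq2 called 1 of them (Tet3, adjusted p = 0.037, among 473 genes in all). The difference of effects was -0.55 ± 0.16 for Tet3 (edgeR adjusted p = 0.068, and 0.0082 with no filter on low counts) and -1.10 ± 0.35 for Tet1 (adjusted p = 0.12). Without P10.5 Morc1tg/+ replicate 2 both were called (0.027 and 0.037), without E16.5 Morc1tg/+ replicate 1 Tet3 was (0.015), and without P10.5 Morc1tg/tg replicate 2 Tet1 was (0.045). Among the methylation readers at P10.5, Mbd2 rose by 0.65 and Zbtb33 by 0.31, and Zbtb4 fell by 0.64. Of 6 tested maintenance partners, Cdca7l (0.52) and Cdca7 (0.49) rose and Pcna fell by 0.37.

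**Figure D2:**
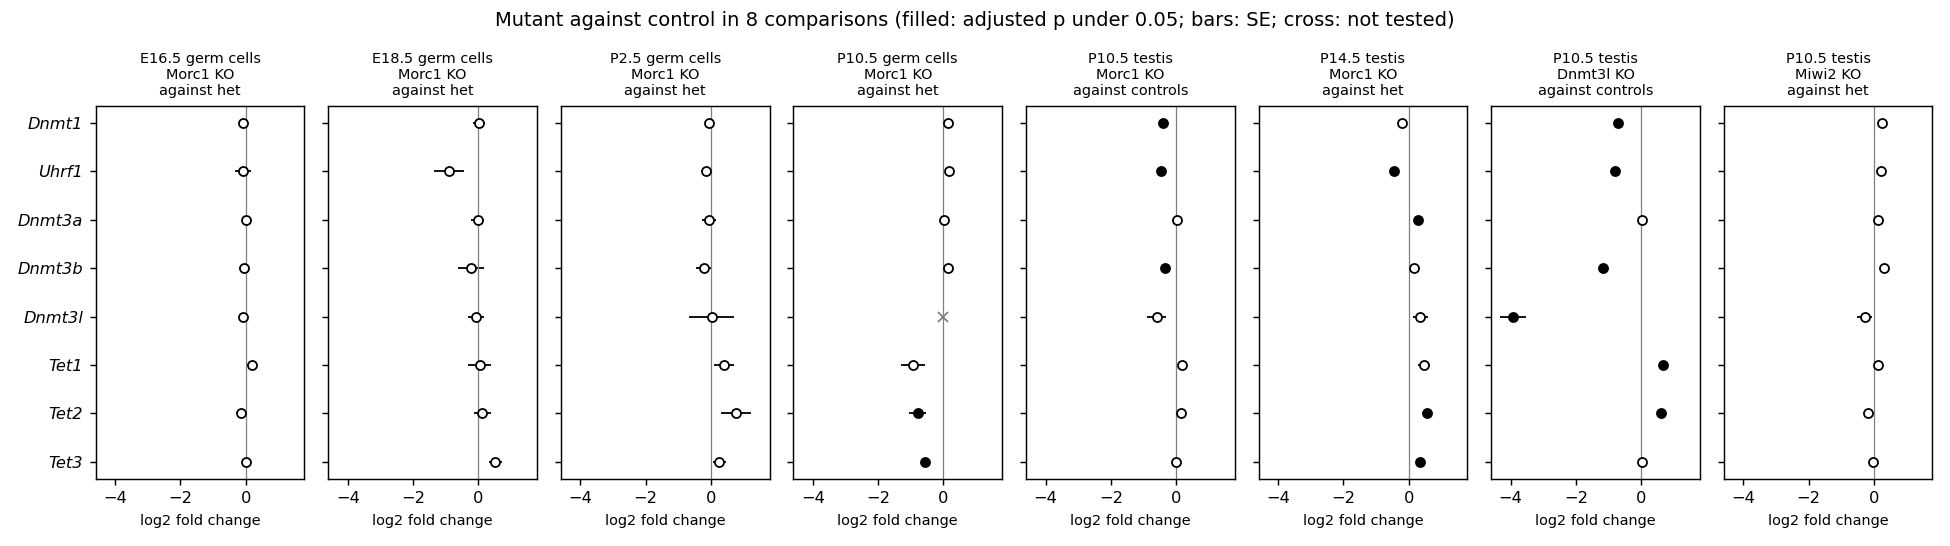
Log2 fold change of each gene with its standard error (bars) in 8 comparisons of genotypes, where KO and het in the panel titles stand for the homozygous mutant and the heterozygote. Filled points were called. The Dnmt3l-/- panel shows Dnmt3b at -1.18 and Tet1 at 0.68, and the grey cross at 0 marks Dnmt3l in P10.5 germ cells, which the filter on low counts left untested.

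In whole testis, the top and the bottom of the order were the same in every group at both ages: Dnmt1 led, at a mean of 37.9 RPKM in Dnmt3l-/- and of up to 65.3 in Dnmt3l+/- testis, Uhrf1 followed, and Dnmt3l was the lowest. In bulk testis, fewer cells of a type and less RNA per cell cannot be told apart. In the Morc1 line at P10.5, 3 of the 8 genes were called, all lower, against 15.3% of all genes. Dnmt1 was 45.1, 39.7 and 41.4 RPKM in Morc1tg/tg and 54.8, 56.2 and 57.2 in the controls, the last of them Morc1+/+. Uhrf1 was 27.6, 25.9 and 26.7 against 35.6, 38.4 and 37.1, and Dnmt3b was 15.2, 14.8 and 13.9 against 18.8, 19.0 and 17.7. None of these groups overlapped, and how many of all genes did the same was not counted. The log2 differences were -0.40 ± 0.05 for Dnmt1 (1.32-fold lower, edgeR adjusted p = 0.00086), -0.45 ± 0.05 for Uhrf1 (1.37-fold, adjusted p = 0.00024) and -0.32 ± 0.05 for Dnmt3b (1.25-fold, adjusted p = 0.0028). Dnmt3a (0.02 ± 0.09), Tet1 (0.19 ± 0.10), Tet2 (0.17 ± 0.11) and Tet3 (-0.01 ± 0.08) did not pass, nor did Dnmt3l (-0.59 ± 0.30, on 24, 21 and 22 reads against 46, 21 and 27).

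Proliferation and germ cell genes fell with them. A total of 11 of the 12 proliferation genes fell (median -0.41, against 0.01 over all genes tested), led by Rrm2 (-0.90), Top2a (-0.60), Mki67 (-0.57) and Mcm5 (-0.52). Of 7 maintenance partners 5 fell, led by the ligase Lig1 (-0.55), Hells (-0.54) and Pcna (-0.45). The 8 germ cell markers summed to between 216.3 and 245.4 RPKM in Morc1tg/tg and between 350.4 and 355.2 in the controls, with 5 of 8 lower, all 5 markers of differentiating spermatogonia and all 6 of early meiosis were lower, and 2 of 6 Sertoli cell markers were higher (sums of 822.1 to 886.2 against 770.8 to 772.1). In sorted germ cells at P10.5 the log2 differences of Dnmt1, Uhrf1 and Dnmt3b were 0.13, 0.18 and 0.13, none of them called. The 2 tissues were not compared by a test. The part of cell composition in the Dnmt1, Uhrf1 and Dnmt3b differences in testis was not tested.

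**Figure D3:**
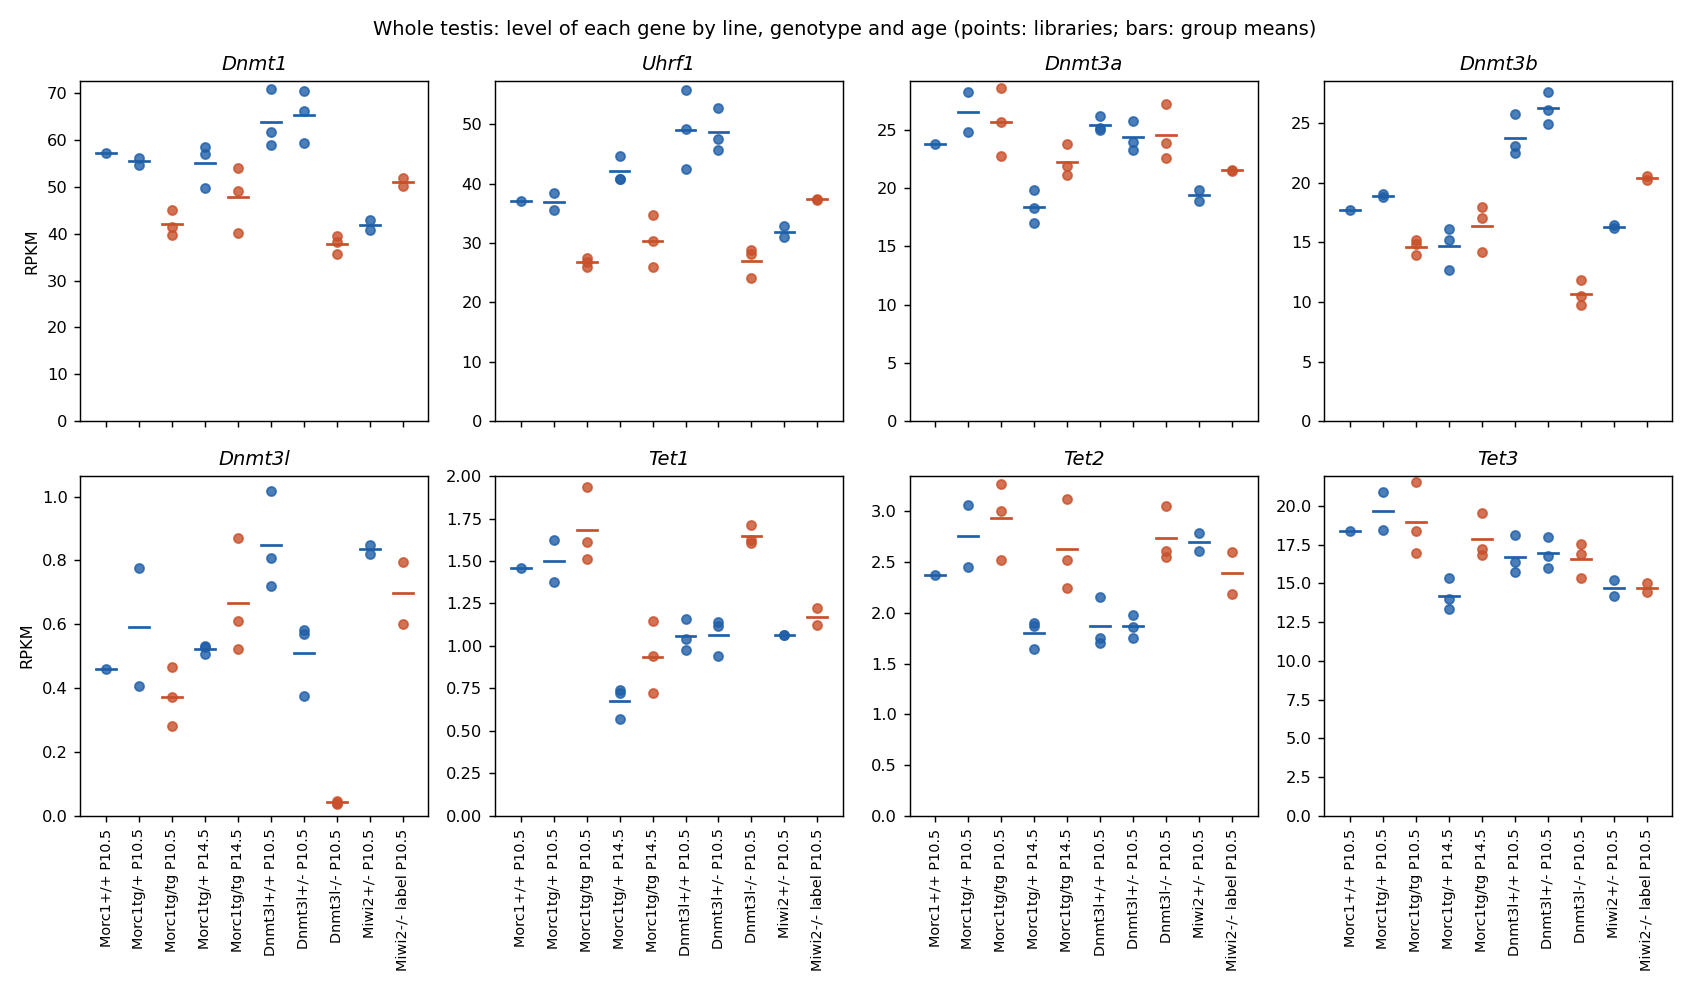
RPKM of each gene in whole testis, 1 point per library, by line, genotype and age, with the group mean as a bar and the 2 preliminary libraries left out. In the Dnmt3l line the Dnmt3l-/- libraries stand below the controls for Dnmt1, Dnmt3b, Dnmt3l and Uhrf1, and above them for Tet1 and Tet2.

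At P14.5, 4 genes were called, 1 lower and 3 higher in Morc1tg/tg testis, where 34.8% of all genes were. Uhrf1 was 34.8, 26.0 and 30.4 RPKM against 44.7, 40.8 and 40.8 in Morc1tg/+. Tet2 was 2.52, 2.24 and 3.13 against 1.64, 1.90 and 1.87, Tet3 was 17.2, 16.9 and 19.5 against 14.0, 15.3 and 13.3, and Dnmt3a was 21.9, 21.1 and 23.8 against 18.3, 19.9 and 17.0. For these 4 genes the groups did not overlap, and how many of all genes did the same was not counted. Uhrf1 fell by 0.46 ± 0.09 (1.38-fold, edgeR adjusted p = 0.0049), and Tet2 (0.55 ± 0.13, adjusted p = 0.010), Tet3 (0.34 ± 0.07, adjusted p = 0.0072) and Dnmt3a (0.29 ± 0.07, adjusted p = 0.011) rose. Dnmt1 had a log2 difference of -0.20 ± 0.10, Dnmt3b 0.17 ± 0.10, Dnmt3l 0.36 ± 0.24 and Tet1 0.47 ± 0.17 (adjusted p = 0.059, and called without Morc1tg/tg replicate 2, at 0.018, with DESeq2, at 0.023, and with no filter on low counts, at 0.047). A total of 9 of 12 proliferation genes were lower. Of 6 CXXC and TET cofactors, 4 rose and 1 fell, with Cxxc4, an inhibitor of TET2, at 1.22, Cxxc5 at 0.65, the O-GlcNAc transferase gene Ogt at 0.62 and Idh1 at 0.31. Germ cell markers summed to between 367.7 and 418.7 RPKM against 857.1 and 1098, pachytene markers to between 15.91 and 18.08 against 50 and 118.2, and Sertoli cell markers to between 697.7 and 844.7 against 551.9 and 616.2. Their part in these differences was not tested.

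With age, from P10.5 to P14.5, 6 of the 8 genes were called in Morc1tg/+ testis, against 51.4% of all genes, and 2 in Morc1tg/tg, against 41% of all genes. In Morc1tg/+ testis Tet1 went from 1.63 and 1.38 RPKM to 0.721, 0.740 and 0.571, and fell by 1.17 ± 0.13 (2.24-fold, edgeR adjusted p = 0.00013). Tet2 fell by 0.63 ± 0.12, Dnmt3a by 0.55 ± 0.08, Tet3 by 0.49 ± 0.08 and Dnmt3b by 0.38 ± 0.09, and Uhrf1 rose by 0.17 ± 0.06 (adjusted p = 0.045, lost without any of 4 of the 5 libraries, at 0.056 to 0.18, the exception being P14.5 replicate 2, and with no filter on low counts, at 0.062, or the replicate block, at 0.21). The Dnmt3b call had an adjusted p of 0.054 without P10.5 replicate 2. In Morc1tg/tg testis Tet1 went from 1.94, 1.51 and 1.61 RPKM to 0.938, 0.721 and 1.15 and fell by 0.85 ± 0.15 (adjusted p = 0.0017), and Dnmt3l rose by 0.87 ± 0.27 (adjusted p = 0.027, on 24, 21 and 22 reads against 47, 27 and 29), a call lost without P14.5 replicate 1 (adjusted p = 0.10), P10.5 replicate 2 (0.067) or P10.5 replicate 3 (0.12), and with DESeq2 (0.068). Without P14.5 replicate 2, 5 genes were called in place of 2, among 5879 of all 15351 genes. Over the same days, germ cell marker sums in Morc1tg/+ testis went from between 350.4 and 355.2 to between 857.1 and 1098.

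The Dnmt3l-/- testis differed in 6 of the 8 genes, 4 lower and 2 higher, where 53.9% of all genes were called. Dnmt3l, the targeted gene, had 3, 3 and 4 reads in Dnmt3l-/-, 33, 38 and 30 in Dnmt3l+/- and 50, 50 and 66 in Dnmt3l+/+ testis, and the fitted log2 difference from the controls was -3.93 ± 0.40 (15.2-fold lower, edgeR adjusted p = 1.0e-05), which rests on those few reads. Dnmt3b was 10.53, 9.78 and 11.8 RPKM in Dnmt3l-/-, 27.6, 24.9 and 26.1 in Dnmt3l+/- and 22.5, 25.8 and 23.1 in Dnmt3l+/+. It was 2.26-fold lower than in the controls (-1.18 ± 0.08, adjusted p = 6.1e-07). Dnmt1 was 35.7, 38.3 and 39.6 RPKM in Dnmt3l-/-, 70.5, 59.4 and 66.1 in Dnmt3l+/- and 58.9, 70.9 and 61.8 in Dnmt3l+/+, which is 1.65-fold lower (-0.73 ± 0.07, adjusted p = 9.3e-06). Uhrf1 was 24.1, 28.8 and 28.2, against 52.8, 45.7 and 47.5 in Dnmt3l+/- and 42.5, 55.7 and 49.2 in Dnmt3l+/+, 1.75-fold lower (-0.81 ± 0.09, adjusted p = 1.2e-05). None of the 4 overlapped the controls, in a comparison where 53.9% of all genes were called and non-overlap was not counted over all genes.

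Among the TET genes, 2 were higher. Tet1 was 1.71, 1.61 and 1.63 RPKM in Dnmt3l-/-, 1.14, 0.939 and 1.12 in Dnmt3l+/- and 1.16, 0.978 and 1.04 in Dnmt3l+/+, a 1.60-fold increase (0.68 ± 0.08, edgeR adjusted p = 3.9e-05). Tet2 was 2.61, 3.06 and 2.55 against 1.86, 1.98 and 1.75 and 2.16, 1.71 and 1.75, a 1.51-fold increase (0.60 ± 0.09, adjusted p = 0.00016). Neither overlapped the controls, again without a count over all genes. Dnmt3a (0.03 ± 0.06) and Tet3 (0.03 ± 0.07) overlapped them and did not pass the test, with RPKM means of 24.5 and 16.6 in Dnmt3l-/- testis and 24.9 and 16.8 in the controls. The ratio of Dnmt3a to Dnmt3b RPKM was between 2.27 and 2.31 in Dnmt3l-/- and between 0.889 and 1.16 in the controls.

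All 7 maintenance partners fell (median -0.83, against -0.00 over all genes tested), among them Hells (-1.11), Cdca7 (-0.94) and Cdca7l (-0.83), and Dppa3 averaged 0.0889 RPKM in Dnmt3l-/- and 1.37 in Dnmt3l+/+ testis. Of 11 chromatin partners of de novo methylation 9 fell, led by Tex15 (-1.39), Piwil4 (-0.94), Ehmt2 (-0.65) and Kdm1b (-0.64). A total of 11 of 12 proliferation genes fell and 1 rose. A further 4 of 6 CXXC and TET cofactors rose (Cxxc4 0.89, Idh2 0.73 and Cxxc5 0.72 foremost) and Cxxc1 fell by 0.51. Of 7 methyl donor genes, Shmt1 (-0.83), Shmt2 (-0.58) and Mtr (-0.37) were among 4 that fell. Of 8 methylation readers, 2 rose and 3 fell, and of 10 base removal and repair genes tested 3 rose and 5 fell, where 53.9% of all genes were called. Germ cell markers summed to between 151.0 and 185.7 RPKM in Dnmt3l-/- testis, 440.7 and 529.0 in Dnmt3l+/- and 414.5 and 473.1 in Dnmt3l+/+, with 8 of 8 lower, and Sertoli cell markers to between 933.9 and 987.9 against 580.5 and 740.3. The part of that shift in the 6 called genes was not tested.

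**Figure D4:**
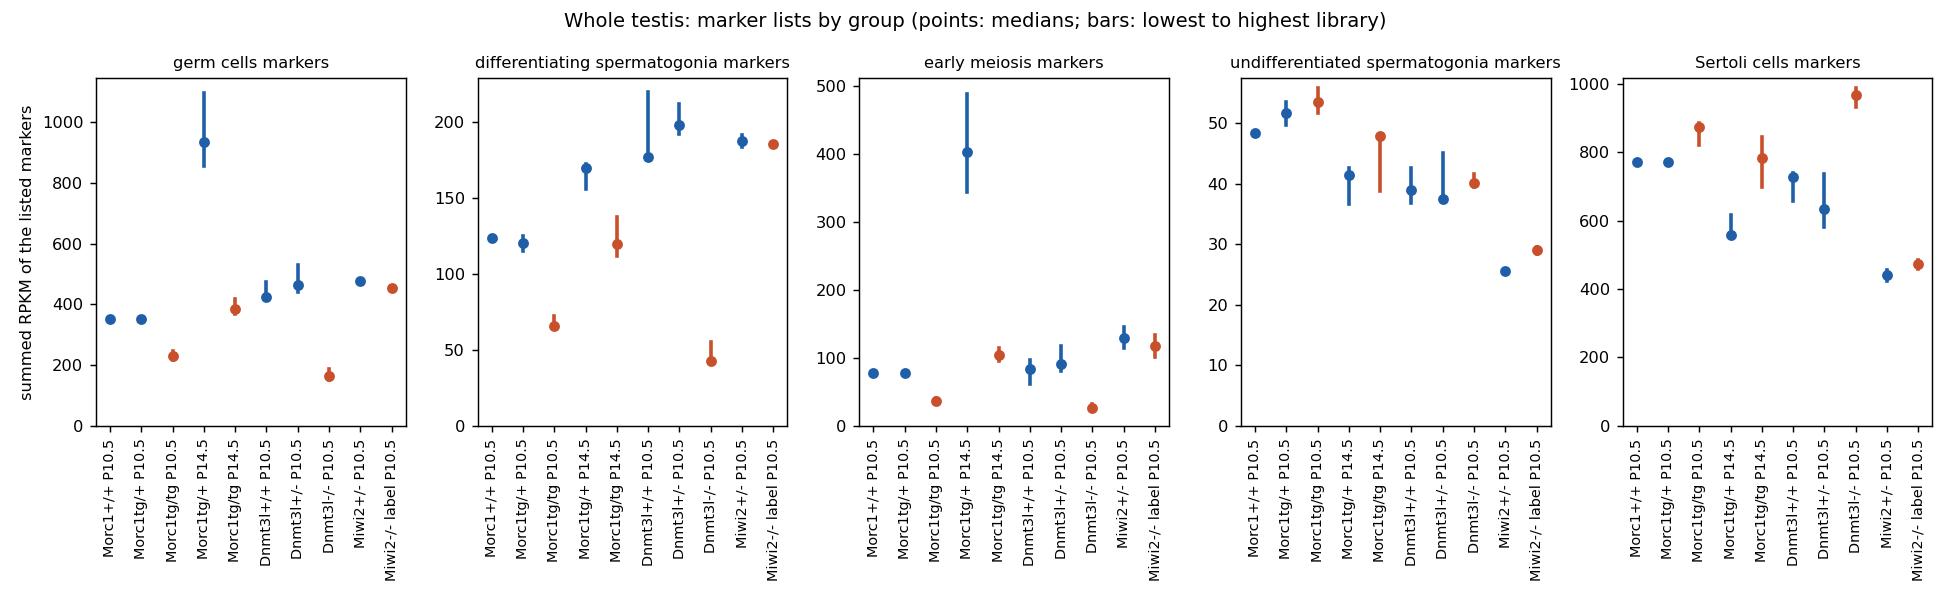
Summed RPKM of 5 marker lists in whole testis by line, genotype and age, with the group median as a point and a bar from the lowest to the highest library. Germ cell markers reach at most 185.7 in Dnmt3l-/- testis and at least 414.5 in its controls, and Sertoli cell markers run the other way.

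The loss of 1 copy of Dnmt3l gave no call with edgeR or DESeq2 among the 8 genes in Dnmt3l+/- against Dnmt3l+/+ testis, where 0.00651% of all genes were called. Dnmt3l itself was 0.569, 0.582 and 0.374 RPKM against 0.721, 0.807 and 1.02. The groups did not overlap, which was not counted over all genes, and the log2 difference was -0.74 ± 0.25 (edgeR adjusted p = 0.99996). Dnmt3l was the 1 gene of the 8 at an unadjusted p under 0.05, as were 287 of 15370 genes in all. In the libraries labelled Miwi2-/-, no gene of the 8 was called by edgeR, against 1.23% of all genes. Dnmt3b was 20.2 and 20.5 RPKM against 16.2 and 16.497 in Miwi2+/- (log2 difference 0.30 ± 0.06, adjusted p = 0.053) and Dnmt1 was 50.3 and 51.8 against 40.9 and 43.0 (0.27 ± 0.07, adjusted p = 0.093). Uhrf1 was 37.4 and 37.3 against 32.8 and 31.0 (0.21 ± 0.07, adjusted p = 0.13). DESeq2 called 2, Dnmt1 (adjusted p = 0.024) and Dnmt3b (0.019), as did the fit without Miwi2+/- replicate 2 (0.031 and 0.020), where 378 of 15997 and 952 of 16272 genes were called in all. Blocking on replicate numbers, edgeR called 5 of the 8, Dnmt1, Dnmt3a, Dnmt3b and Uhrf1 higher and Tet2 lower, and 4503 genes in all in place of 197.

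The effects of the 2 lines at P10.5 were then set against each other by an interaction term, which called 4 of the 8 genes, against 17.6% of all genes. Dnmt3l is the gene deleted in 1 of the lines, and its term was -3.30 ± 0.57. Dnmt3b fell further in Dnmt3l-/- than in Morc1tg/tg testis, by 0.81 ± 0.11 (edgeR adjusted p = 0.00012). Tet1 and Tet2 were higher in Dnmt3l-/- testis and were not called in Morc1tg/tg testis, and the effects differed by 0.54 ± 0.14 (edgeR adjusted p = 0.014, 0.060 without Dnmt3l-/- replicate 1 and 0.063 with log2(RPKM + 1)) and 0.48 ± 0.16 (adjusted p = 0.043). The mutants were at like levels in the 2 lines, Tet1 at means of 1.65 RPKM in Dnmt3l-/- and 1.69 in Morc1tg/tg and Tet2 at 2.74 and 2.93, while the control means were lower in the Dnmt3l line, 1.06 against 1.49 for Tet1 and 1.87 against 2.63 for Tet2. The Tet2 term was lost without any of 8 single libraries (adjusted p from 0.056 to 0.13): Dnmt3l-/- replicates 1 and 2, Dnmt3l+/+ replicates 2 and 3, Dnmt3l+/- replicate 1, Morc1tg/tg replicates 2 and 3 and Morc1tg/+ replicate 2. It was also lost with RLE size factors (0.055), no filter on low counts (0.070), the replicate block (0.095) and log2(RPKM + 1) (0.15), and so was called in 8 of 20 alternatives. Dnmt1 (-0.28 ± 0.10, adjusted p = 0.066) and Uhrf1 (-0.31 ± 0.11, adjusted p = 0.067) were not called, and were called in 6 and 5 of 20 alternatives, with DESeq2 among them (0.027 and 0.031). Germ cell markers moved in the same direction, with 7 of 8 falling further in Dnmt3l-/- testis (median -0.84), and their part in these terms was not tested.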

How the data were processed

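RNA-Seq of 20 sorted germ cell libraries and 27 whole testis libraries was used. The authors mapped reads to mm9 gene and repeat annotations, keeping reads that mapped to a single place, and counted reads per gene with HTSeq at default settings. For that step an aligner was not given in the sources used here. Per the labels and methods, the deposited counts are raw reads per gene, and the deposited RPKM values are reads scaled by exon length and by the number of mapping reads. Sorted cells (NuGEN Ovation) and testis (TruSeq) were prepared with different kits and not compared with each other.

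Genotypes, stages and lines were compared in 19 comparisons over all genes with edgeR 4.0.16 in R 4.3.3 (TMM scaling, filterByExpr, quasi-likelihood test, Benjamini-Hochberg adjustment, threshold 0.05). Stages were fitted within a genotype. Wild-type and heterozygous libraries together were the controls of the Morc1 P10.5 and Dnmt3l testis comparisons. Alternatives were DESeq2 1.42.0, RLE size factors, no filter, limma 3.58.1 on log2(RPKM + 1), the replicate number as a block, each library left out, all sorted libraries in one fit, and other controls. The fits were tested on simulated data for 4 of the comparisons. Between genotypes, edgeR recovered 46.4% of 2-fold changes in E16.5 germ cells, 71.1% in P10.5 germ cells and 87.9% in Dnmt3l-/- testis. For the difference between the Dnmt3l and Morc1 effects it recovered 68%. The genotype comparisons at E18.5 and P2.5 were not simulated. RPKM gives the levels, and counts give the tests, so changes in the text are relative to TMM scaling.

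The genes and lists were chosen with earlier results of these data known. All 8 genes are given, and from each pathway list at most 4 called genes with the largest change in a comparison. Also given are the targeted genes and, for each of the 8, the 2 genes with the most similar RPKM over sorted cells. Genes named beyond the rule (Dppa3 levels, Apobec1 levels) were chosen after their values were seen. Gm14490, Meiob and Rhox5 were not analysed here. Of 26385 gene IDs, 26343 were found in GENCODE vM1 and 26009 had the same coordinates there. No libraries of a group were copies of each other: the lowest chi-square per gene over 38 pairs was 4.446. Total counts ranged from 2413679 to 42137954, and low counts, as for Dnmt3l at P10.5, and groups of 2 to 4 libraries limit precision. Promoters were read from RefSeq in GRCm38.p6, and no coordinates were converted. Each library came from 1 individual mouse. The preliminary and the other Morc1+/+ testis library are both numbered replicate 1, and whether they came from the same mouse is not stated. Some genes of the pathway lists are not reported here by name.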

Additional observations from a re-analysis of the deposited data

Results flagged for a closer look

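Dnmt3a RPKM was 9.94 in P10.5 Morc1tg/+ germ cells of replicate 1 and between 8.24 and 8.50 in the other libraries of that group, a gap larger than chance usually gives. The 8 genes were examined in this way in 1 group of 4 libraries, and chance alone flags about 1 in 20 such sets.

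The effect of Dnmt3l loss differed from that of Morc1 loss in P10.5 testis, by the interaction term of edgeR with Benjamini-Hochberg adjustment, for 4 genes. The difference was -0.81 for Dnmt3b, -3.30 for Dnmt3l, the gene deleted in 1 of the lines, 0.54 for Tet1 and 0.48 for Tet2, all on the log2 scale. The Tet2 term was called in 8 of 20 alternatives, with an adjusted p of up to 0.15. The germ cell marker sums of the lines differed too, and their part was not tested.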

How the results depend on the processing

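Of 152 pairs of gene and comparison, 60 were called, and 43 of these were called under every alternative that was run. For Morc1tg/tg testis at P10.5, the Morc1tg/+ controls alone and the omission of the Morc1+/+ library are the same fit, counted under both names. Over 947 alternative values of the 82 pairs called in at least 1 fit, 825 kept their side of the threshold, 73 lost the call, 49 gained it and 0 changed direction. Pairs never called changed sign in 90 of 800 values. The number of genes called was within 1.5 times of the reported one in 191 of 220 cases. Otherwise it was 1 in E18.5 germ cells with all sorted libraries in one fit, 1 with limma and 0 with all sorted libraries in one fit in P10.5 germ cells, 2 with limma for E16.5 to E18.5 in Morc1tg/+ cells, 3 with limma for P2.5 to P10.5 in Morc1tg/tg cells, 1 with DESeq2 for P10.5 to P14.5 in Morc1tg/tg testis, and 1 with DESeq2 and 1 with no filter for the Morc1 effect at P10.5 against E16.5. In the Miwi2 line it was 2 with DESeq2 and 5 with the replicate block. Leaving out single libraries gave between 0 and 1 in E18.5 germ cells, between 1 and 3 in P10.5 germ cells, between 0 and 2 in the Miwi2 line, between 2 and 3 for E16.5 to E18.5 and between 3 and 6 for P2.5 to P10.5 in Morc1tg/+ cells, between 2 and 4 for E16.5 to E18.5 in Morc1tg/tg cells, between 1 and 5 for P10.5 to P14.5 in Morc1tg/tg testis, between 0 and 2 for the Morc1 effect at P10.5 against E16.5, and between 2 and 6 for the Dnmt3l effect against the Morc1 effect. The cause was not tested.

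In comparisons with 3 or more pairs, replicate numbers did not pair the samples by the check used, since in none was every pair's correlation of deviations over 0.1. In groups of 2 libraries the deviations mirror each other, so the 2 Miwi2 pairs share the value r = 0.32. Whether the Miwi2 samples were paired cannot be told from it. With the replicate block, which leaves little to estimate the spread from, 5 genes were called in the Miwi2 line, Dnmt1, Dnmt3a, Dnmt3b and Uhrf1 higher and Tet2 lower. Germ cells of E18.5 and P2.5 had shallow libraries, and the largest standard errors between genotypes in sorted cells were 0.70 for Dnmt3l at P2.5 and 0.46 for Uhrf1 at E18.5 and for Tet2 at P2.5. The Dnmt3l value goes with a log2 difference of 0.02 and is unreliable. Between genotypes in P10.5 germ cells, Dnmt3l was tested only with no filter on low counts and in the fit of all sorted libraries, and was not called.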
